A study of Gallus gallus with 25 samples.

Results

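The contact domains of type 1 chicken oocytes were compared between the lampbrush chromosome (LBC) stage and the post-lampbrush (post-LBC) stage. Each of the 1132 domains listed for post-LBC type 1 was placed in 1 of 4 classes by its overlap with the 1546 domains listed for LBC type 1, out of 6475 domains in the 5 lists of the series. A domain was kept if its start and its end lay within 80 kb of the start and the end of the same LBC domain. It was a fusion if it started within 80 kb of the start of an LBC domain and ended within 80 kb of the end of a later one, so that 2 or more whole LBC domains were joined. It was a part if it lay inside 1 LBC domain, with at most 80 kb outside it at either end, without being kept. All others were called shifted.

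The lists come from single-nucleus Hi-C, which reads which pieces of DNA lay close together in 1 nucleus. The 18 type 1 nuclei are among 25 chicken oocyte nuclei of the series, all labelled WT. The LBC type 1 map pools 14 nuclei of oocytes 1 to 2 mm in diameter, and the post-LBC type 1 map pools 4 nuclei of oocytes 4 to 7 mm in diameter. The labels state that the type was assigned after quality control, and the study's supplement separates the types by the share of contacts between chromosomes. It calls the origin of the types unclear and reports LBC type 2 boundaries much like those of fibroblasts. It regards contamination as unlikely and proposes an earlier stage for LBC type 2 and a later one for post-LBC type 2. The study's main domain analyses used type 1 only. The type 2 lists below are thus no repeats of the same stages. The labels do not say which hen each nucleus came from, and the stage was set by oocyte diameter.

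Lampbrush chromosomes are the giant, extended chromosomes of growing oocytes in the diplotene of meiosis, best known from amphibians and birds. Each carries a row of compact chromomeres from which pairs of lateral loops extend, and the loops are transcribed very actively. As the oocyte grows on, transcription declines, the loops retract and the chromosomes shorten. In Hi-C maps a contact domain is a stretch of DNA whose parts meet each other more often than they meet the neighbouring stretches, and its ends are called boundaries or, between neighbouring domains, borders. Bird genomes combine a few large chromosomes with many small, gene-rich microchromosomes and a Z sex chromosome, of which hens carry a single copy. Here chromosomes 1 to 5 are called macrochromosomes, 6 to 10 intermediate chromosomes and those from 11 on microchromosomes.

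Each stage is represented by 1 pooled list with positions only, so that no spread between nuclei could be measured and no difference between the stages was tested. Percentages are given with 95% Wilson intervals, which cover counting error only, since the domains of 1 map are not replicates. Whether intervals overlap is given below as a description and is no test of a difference. The depth behind each domain is not in the lists. Domains had a median length of 592 kb in the LBC list (quartiles 432 and 784 kb) and of 864 kb in the post-LBC list (624 and 1104 kb). The caller that drew them has a parameter that sets domain size, and its value for the pooled maps is not given in the sources used here. The stage, the number of pooled nuclei and this parameter cannot be told apart.

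Kept and shifted domains were the most numerous classes at the tolerance of 80 kb, and fusions outnumbered parts. Kept domains numbered 382, which is 33.7% of the post-LBC list (31.1% to 36.6%). Fusions numbered 241, 21.3% of the list (19.0% to 23.8%). Parts numbered 130, 11.5% of the list (9.76% to 13.5%), and shifted domains 379, 33.5% of the list (30.8% to 36.3%). The intervals of kept and shifted domains overlapped. The order turned with the tolerance, since at 160 kb shifted domains were 20.5% and fusions 27.0%, and at 32 kb shifted domains were 41.8% and kept ones 25.6%. These shares follow from the rule that made the classes and carry no test. By length the order was different, since shifted domains covered 380 Mb or 38.4% of the summed domain length, fusions 266 Mb or 26.9%, kept domains 261 Mb or 26.4% and parts 82.2 Mb or 8.32%.

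The share of fusions depended on which list of LBC domains was taken. The study also holds a manually refined list of the same LBC type 1 map, with a median domain length of 976 kb. It has 873 domains, fewer than the 1132 of the post-LBC list, whose median was 864 kb. Few fusions and many parts against the manual list thus follow in part from its coarser division. Against that list, over the 1126 post-LBC domains on the chromosomes it includes, 34 domains were fusions, or 3.02% (2.17% to 4.19%), 405 were kept (36.0%), 539 were parts (47.9%) and 148 were shifted (13.1%). The manual list itself, classed against the automatic LBC list of the same map, had 340 fusions among 859 domains, or 39.6% (36.4% to 42.9%). The share of fusions between the 2 lists of the LBC map was thus above that between the stages, and the former pair differs in the manual step while the latter does not. The manual list also holds fewer domains than the post-LBC list, 873 against 1132, so that this order is partly set by list size. Each result on fusions below refers to the automatic LBC list unless the manual one is named.

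Fused domains were long, as their definition requires. Fusions had a median length of 1072 kb (quartiles 944 and 1264 kb, range 352 to 1824 kb), against 648 kb for kept domains (512 and 832 kb, up to 1696 kb). Shifted domains had a median of 1008 kb (768 and 1224 kb), close to that of fusions, and parts a median of 592 kb (388 and 812 kb).

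**Figure D1:**
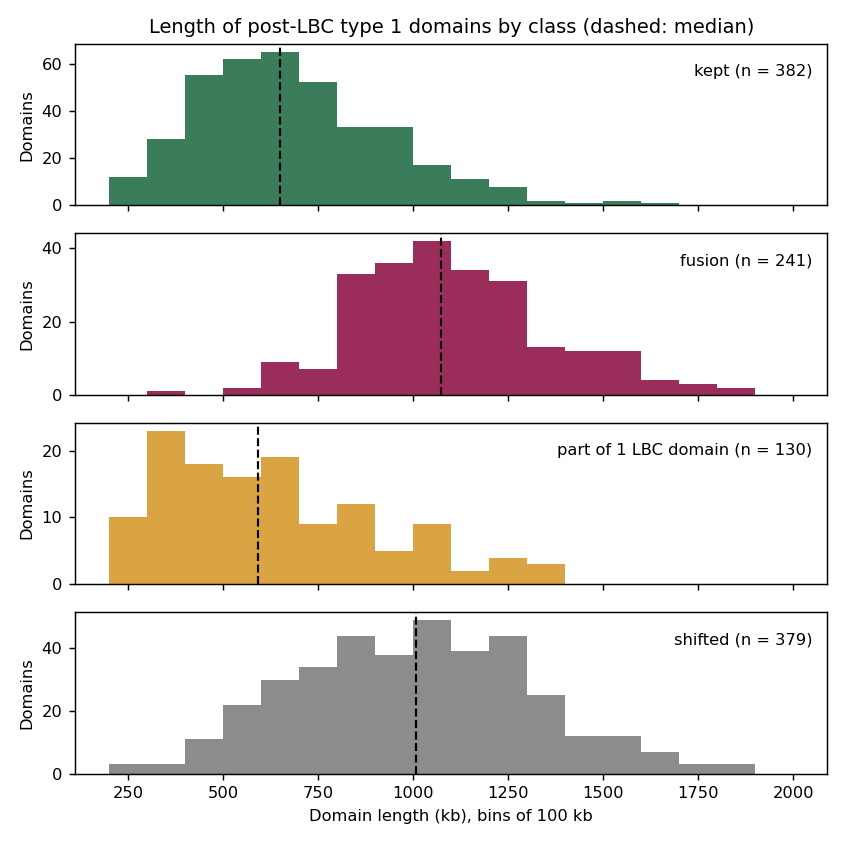
Length of the post-LBC type 1 domains in kb, in bins of 100 kb, with 1 panel for each class and a dashed line at its median. The medians were 648 kb for kept domains, 1072 kb for fusions, 592 kb for parts and 1008 kb for shifted domains.

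Most fusions joined a pair of LBC domains. Of the 241 fusions, 209 joined 2 LBC domains (86.7%), 31 joined 3 (12.9%) and 1 joined 4. Together they held 515 LBC domains and 274 inner borders. Fusions of 2 had a median length of 1024 kb and fusions of 3 a median of 1328 kb. Fusions of 3 were 18 of the 117 fusions on macrochromosomes, 10 of 55 on intermediate chromosomes, 3 of 63 on microchromosomes and 0 of 6 on Z.

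The partners of a fused pair were often unequal, and whether neighbouring LBC domains outside fusions were less so was not tested. In the 209 fusions of 2, the smaller partner had a median length of 400 kb and the larger one of 624 kb. The ratio of the smaller to the larger had a median of 0.652 (quartiles 0.519 and 0.814), with a range from 0.215 to 1.00. In 89 pairs neither partner was longer than 592 kb, the median of all LBC domains, in 109 pairs 1 partner was, and in 11 pairs both were. The longer partner lay on the left in 102 pairs and on the right in all others except 4 with equal partners. In 10 of the 241 fusions the joined LBC domains had an unassigned gap between them, of at most 192 kb.

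The single fusion of 4 LBC domains lay on chromosome 5 from 17488001 to 19040000 (all positions on ASM2420605v2). Its 1552 kb held LBC domains of 496, 240, 432 and 368 kb, and it ended 16 kb to the right of the last of these. In the manual LBC list the same stretch was already 1 domain, from 17488001 to 19020000. This domain was a fusion also against the automatic LBC type 2 list and against the post-LBC type 2 list. The longest fusion, of 1824 kb, lay on chromosome 10 from 14592001 to 16416000 and joined LBC domains of 592, 608 and 624 kb, with both outer ends at the LBC coordinates. The manual LBC list had 1 domain there as well, from 14592001 to 16400000. This domain was shifted against LBC type 2 and a fusion against post-LBC type 2. The shortest fusion, of 352 kb, lay on chromosome 22 from 3056001 to 3408000. It joined 2 LBC domains of 208 kb, the shortest length that the automatic lists hold. It was kept against the manual LBC list, which has 1 domain there from 3056001 to 3472000, and kept against LBC type 2, and it was shifted against post-LBC type 2.

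The longest fusion of the macrochromosomes lay on chromosome 2 from 27104001 to 28832000 and joined LBC domains of 592 and 1088 kb. It too matched a single manual LBC domain, from 27100001 to 28800000. The longest ones on the microchromosomes and on Z were different. On chromosome 18, from 3648001 to 5264000, LBC domains of 752 and 832 kb met at 4432000 inside the fusion, and the manual list has a border at the same coordinate. Its left manual domain started further to the left, at 3088001, so that the post-LBC domain counted as shifted there. On Z, the longest fusion from 16016001 to 17824000 joined LBC domains of 1104 and 736 kb. Here the manual list has a gap between domains that end at 17050000 and start at 17088001, next to the LBC border at 17088000.

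Fusions were found on 26 of 28 chromosomes, and their share differed among the chromosome classes. They made up 55 of 166 post-LBC domains on the intermediate chromosomes, or 33.1% (26.4% to 40.6%), and 63 of 218 on the microchromosomes, or 28.9% (23.3% to 35.2%), 2 intervals that overlap. On the macrochromosomes they made up 117 of 676, or 17.3% (14.6% to 20.3%), and on Z 6 of 72, or 8.33% (3.88% to 17.0%). The intervals of both smaller chromosome classes lay above that of the macrochromosomes, and the intervals of the macrochromosomes and Z overlapped. In summed domain length, fusions took 41.8% on intermediate chromosomes, 38.2% on microchromosomes, 22.2% on macrochromosomes and 10.1% on Z. LBC domains above the median of 592 kb outnumbered the others on macrochromosomes (488 and 405) and Z (58 and 33). They did not on intermediate chromosomes (91 and 167) and microchromosomes (115 and 189). Whether the shares here and in the next paragraph go beyond domain length was not tested.

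Parts and shifted domains followed the reverse order of chromosome classes. Parts were 13.9% of the domains on macrochromosomes and 16.7% on Z, against 4.22% on intermediate chromosomes and 7.80% on microchromosomes. Shifted domains made up 58.3% on Z (46.8% to 69.0%), 36.1% on macrochromosomes (32.6% to 39.8%), 26.1% on microchromosomes and 21.7% on intermediate chromosomes. Kept domains were fewest on Z, with 12 of 72 or 16.7% (9.80% to 26.9%), against 32.7% on macrochromosomes, 37.2% on microchromosomes and 41.0% on intermediate chromosomes.

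Among the 20 chromosomes with 10 or more post-LBC domains, the share of fusions was highest on chromosome 12, with 12 of 23 or 52.2%, and lowest on Z. The 2 largest chromosomes were near the low end, with 25 of 215 on chromosome 1 (11.6%) and 21 of 162 on chromosome 2 (13.0%). Chromosomes 3, 4 and 5 were at 25.0%, 22.0% and 23.9%. The intermediate chromosomes 6 to 10 were at 38.5%, 36.6%, 25.7%, 23.3% and 42.9%. Chromosome 10 had the clearest correspondence between the stages, with 11 kept domains, 9 fusions, 0 parts and 1 shifted domain among its 21. Chromosome 15 had the highest share of kept domains, 11 of 18 or 61.1%. The smallest chromosomes hold 6 to 9 domains each, too few to rank. On chromosomes 22 and 26 each domain was kept or a fusion, whereas on chromosomes 24 and 27 there was no fusion.

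**Figure D2:**
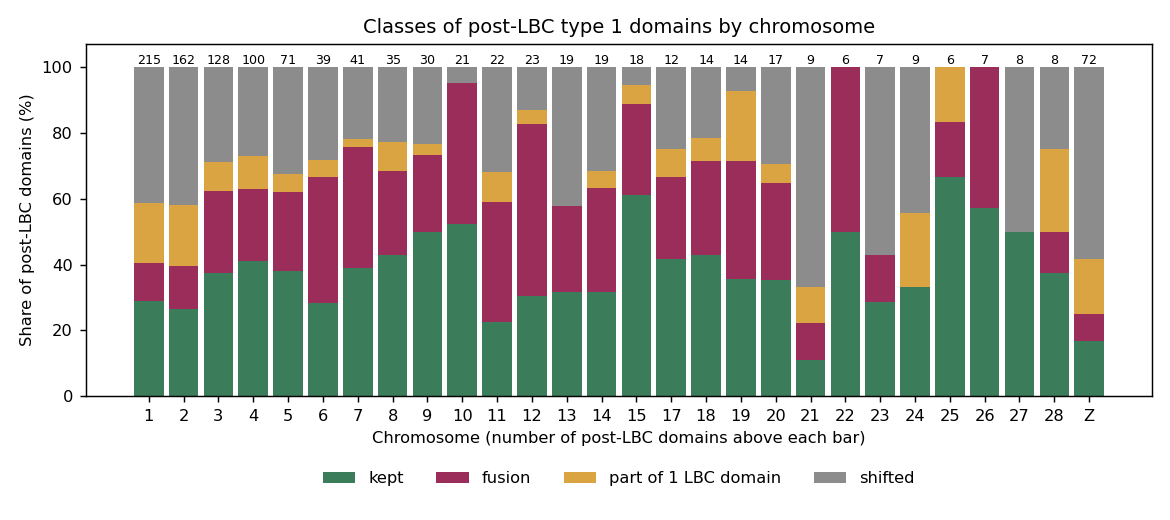
Share of the post-LBC type 1 domains in each class, in percent, for each of the 28 chromosomes, with the number of post-LBC domains above each bar. Chromosome 12 has the highest share of fusions (52.2%) among chromosomes with 10 or more domains, and Z has the lowest (8.33%) and the highest share of shifted domains (58.3%).

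The order of the chromosome classes was partly different against the manual LBC list. Fusions of manual LBC domains were 24 of 212 post-LBC domains on the microchromosomes, or 11.3% (7.73% to 16.3%), 4 of 166 on the intermediate chromosomes (2.41%), 6 of 676 on the macrochromosomes (0.888%) and 0 of 72 on Z, which allows up to 5.07% by the Wilson interval. Kept domains made up 66.9% on the intermediate chromosomes and 49.1% on the microchromosomes, whereas parts made up 60.1% on the macrochromosomes and 58.3% on Z. The coarser division of the manual list bears on these shares too. The microchromosomes thus had more fusions than the macrochromosomes under both LBC lists, while the intermediate chromosomes did so only under the automatic one beyond the width of the intervals.

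Seen from the LBC stage, short domains were found in fusions more often than long ones. This difference follows in part from the rule, since a fusion has to fit inside 1 post-LBC domain and none was longer than 1888 kb. Of the 1546 LBC domains, 515 were joined in a fusion (33.3%, 31.0% to 35.7%), 382 were kept (24.7%), 358 lay whole inside a longer shifted domain (23.2%), 287 were shifted (18.6%) and 4 were divided into several post-LBC domains (0.259%). LBC domains that ended in a fusion had a median length of 496 kb (quartiles 368 and 624 kb). Those lying whole inside a shifted domain had a median of 560 kb, kept ones of 648 kb and shifted ones of 800 kb. The longest LBC domain in any fusion had 1104 kb, whereas the longest kept one had 1696 kb.

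When the LBC list was divided by length into 4 bins of similar number, 51.6% of the shortest bin, of 208 to 432 kb, was joined in fusions (46.7% to 56.5%). The share was 41.6% at 448 to 592 kb, 26.3% at 608 to 784 kb and 12.4% at 800 kb and above (9.43% to 16.1%). The share of kept domains was lowest in the shortest bin, 14.1%, and was 32.5% in the bin of 608 to 784 kb and 28.2% in the longest. Shifted LBC domains made up 6.05% of the shortest bin and 38.7% of the longest.

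**Figure D3:**
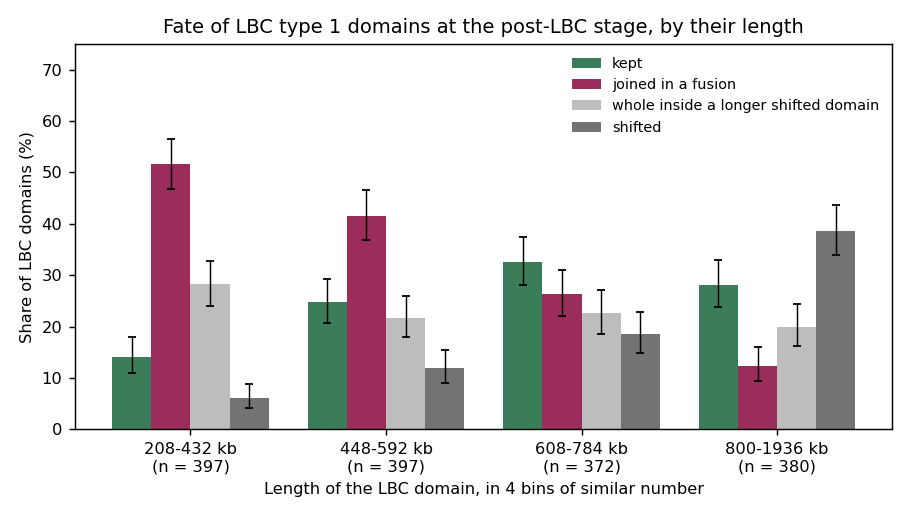
Share of LBC type 1 domains with each fate at the post-LBC stage, in percent with 95% Wilson intervals, by bin of LBC domain length. The share joined in a fusion is 51.6% in the shortest bin and 12.4% in the longest, while the share of shifted LBC domains is 6.05% and 38.7% in these bins; the 4 divided domains are not drawn.

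The difference between short and long LBC domains was present in each chromosome class, where it also follows in part from the rule. On macrochromosomes 44.4% of the LBC domains of at most 592 kb and 15.2% of the longer ones were in fusions, on intermediate chromosomes 53.9% and 33.0%, on microchromosomes 49.2% and 31.3%, and on Z 21.2% and 8.62%. The intervals of short and long domains did not overlap in the first 3 classes and did on Z, which has 91 LBC domains. Among long LBC domains, those of the macrochromosomes (12.3% to 18.6%) were in fusions less often than those of the intermediate chromosomes (24.2% to 43.1%) and microchromosomes (23.5% to 40.3%). The long domains were not matched in length and reached 1936 kb on macrochromosomes, 1296 kb on intermediate chromosomes and 1248 kb on microchromosomes. Whether this difference between the chromosome classes goes beyond length was not tested. Among short ones the intervals of macrochromosomes (39.7% to 49.3%), intermediate chromosomes (46.3% to 61.3%) and microchromosomes (42.2% to 56.3%) overlapped.

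Neighbouring LBC domains were also taken in pairs. There were 1382 borders where 2 LBC domains abut, of which 264 (19.1%) were inside a fusion, 712 (51.5%) had a post-LBC boundary within 80 kb and 406 (29.4%) had neither. Pairs joined in a fusion had a median combined length of 1000 kb, against 1264 kb for pairs with a retained border and 1344 kb for the rest. In 4 bins of the combined length, 35.6% of pairs of up to 976 kb were joined, 25.9% of pairs of 992 to 1216 kb, 11.7% of pairs of 1232 to 1488 kb and 2.89% of longer pairs. The retained share varied less, between 44.5% and 57.8%. The fall in the joined share and the shorter median of joined pairs follow in part from the rule. A joined pair has to fit inside 1 post-LBC domain and none was longer than 1888 kb, whereas pairs reached 3056 kb.

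The rule allows the ends of kept domains to move by up to 80 kb, and the offsets within that limit are given as a description. Of their 764 ends, 401 lay at the same coordinate in both lists (52.5%), 192 were moved by 16 kb (25.1%), which is 1 step of the grid on which the lists were drawn, and the rest by 32 to 80 kb. In 114 domains both ends were identical. The length was equal in 129 domains, greater at the post-LBC stage in 111 and smaller in 142, with changes between a lengthening of 144 kb and a shortening of 160 kb. Of the 241 fusions, 85 had both outer ends at the LBC coordinates.

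The longest kept domain, of 1696 kb, lay on Z from 70304001 to 72000000, 32 kb to the left of an LBC domain of the same length. The manual list places it inside a domain from 69680001 to 72304000. The longest kept domain of the macrochromosomes had 1536 kb on chromosome 1, from 6432001 to 7968000, and that of the intermediate chromosomes had 1280 kb on chromosome 7, from 31344001 to 32624000. On the microchromosomes the longest had 1168 kb, on chromosome 22 from 3712001 to 4880000. The manual list has a border at 4500000 inside the last of these, and the domain was a fusion against that list, against LBC type 2 and against post-LBC type 2. The shortest kept domains had 208 kb and lay on chromosomes 3, 4, 7 and 25.

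Several long domains had identical coordinates at both stages. These were, as the longest of their classes, the domain of chromosome 4 from 80160001 to 81248000 (1088 kb), that of chromosome 8 from 17136001 to 18368000 (1232 kb), that of chromosome 18 from 6144001 to 7136000 (992 kb) and that of Z from 58944001 to 59968000 (1024 kb). The first 3 were kept also against the manual LBC list, whereas that of Z was a part there. Only 25 of the 382 kept domains had a counterpart within 80 kb at both ends in each of the other 4 lists, type 2 included. They had a median length of 624 kb (range 256 to 1232 kb), and the domain of chromosome 8 was the longest of them. Of the 25, 9 lay on macrochromosomes (of 221 kept domains there), 7 on intermediate chromosomes (of 68), 9 on microchromosomes (of 81) and 0 on Z (of 12). The kept domains on Z are too few for the 0 to be read as a difference.

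Kept domains and fusions also occurred in runs of neighbours, although most stood alone when each single domain is counted as a run. Of 221 runs of kept domains 134 held 1 domain, and of 174 runs of fusions 138 did. In runs of 2 or more lay 248 of the 382 kept domains and 103 of the 241 fusions. Whether such runs are more frequent than the shares alone would give was not tested. The longest run of kept domains had 8 members on chromosome 9, from 15216001 to 20208000, with lengths of 304, 336, 512, 1088, 672, 1040, 480 and 560 kb. Of these 8 domains, 7 were kept against the manual LBC list too. The longest run of fusions had 7 members on chromosome 5, from 6800001 to 12816000, where 14 LBC domains were replaced by domains of 672, 784, 752, 896, 832, 1072 and 1008 kb. Against the manual LBC list, 4 of these 7 were kept and 3 were parts, so that none was a fusion there.

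**Figure D4:**
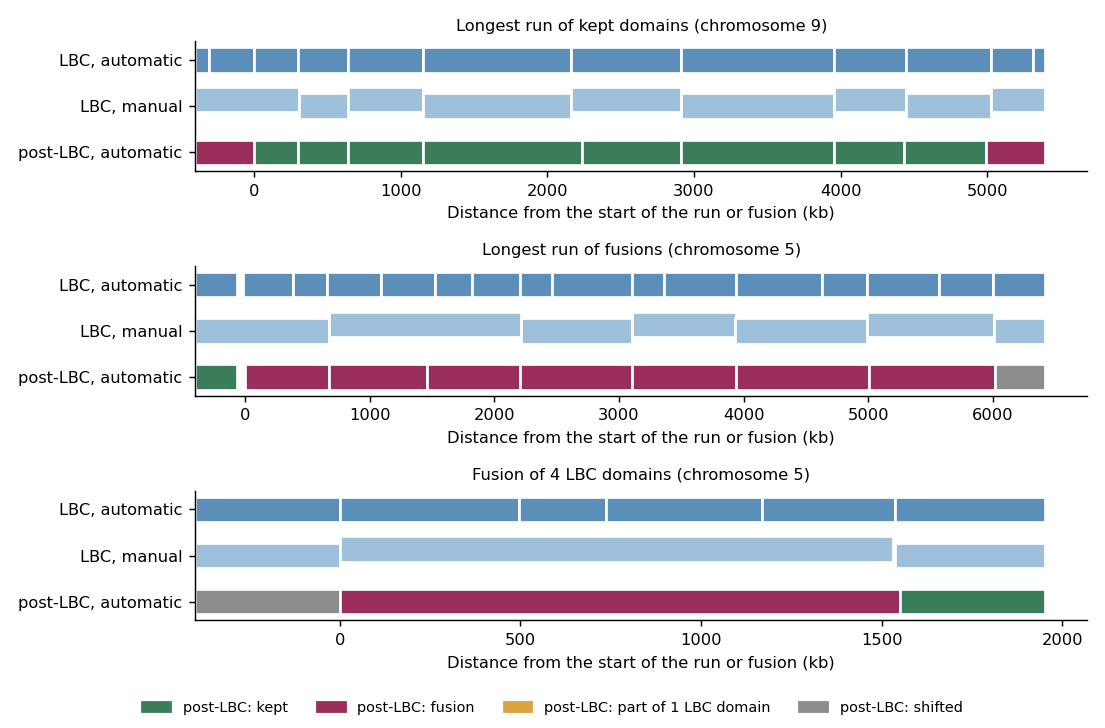
Domains of the automatic LBC type 1 list, the manually refined LBC type 1 list and the post-LBC type 1 list along 3 stretches, drawn against the distance in kb from the start of the stretch, with the post-LBC domains coloured by class and neighbouring manual domains set at alternating heights because some overlap. The 7 fusions of chromosome 5 replace 14 automatic LBC domains and 4 of them match a manual domain, and the fusion of 4 LBC domains spans 1 manual domain.

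Of 1010 pairs of abutting post-LBC domains, 201 (19.9%) were a fusion next to a kept domain, 161 (15.9%) were 2 kept domains and 67 (6.63%) were 2 fusions. Shifted domains lay next to shifted ones in 178 pairs (17.6%) and next to parts in 148 (14.7%). These combinations are partly set by the rule, because a boundary that matches an LBC boundary serves the domains on both of its sides. At the chromosome ends, 26 of the 56 outermost domains were kept (46.4%) and 10 were fusions (17.9%), against 33.7% and 21.3% of all post-LBC domains. The outer end of such a domain can be set by the chromosome end in both lists.

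Shifted domains were mostly LBC domains extended at 1 end. Of the 379, 275 had 1 end within 80 kb of an LBC boundary (72.6%), 91 had neither (24.0%) and 13 had both (3.43%). The commonest kind, 230 domains or 60.7%, had 1 matched end and held 1 whole LBC domain while extending beyond it at the other end. Another 36 held 2 whole LBC domains and 6 held 3, without matching them at both outer ends, so that 42 shifted domains would be fusions if the outer ends were not required to match. In the 275 domains with 1 matched end, the free end lay at a median of 176 kb from the nearest LBC boundary and at most 928 kb from it. The longest shifted domain, of 1888 kb, lay on Z from 2384001 to 4272000, matched no LBC boundary and held no whole LBC domain. Also on Z was the longest run of shifted domains, with 7 members from 35792001 to 44112000.

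Parts lay mostly beside shifted domains. Of the 130 parts, 121 had 1 end at an LBC boundary and 121 abutted a shifted domain, and for 127 the rest of the LBC domain lay mostly in other post-LBC domains. No part had both ends at LBC boundaries, and a domain that abuts a part at an unmatched end cannot be kept or a fusion. The class of these neighbours is thus largely set by the rule. Parts covered a median of 70.8% of their LBC domain (range 16.5% to 92.1%), and the 126 LBC domains concerned were long, with a median of 872 kb. This length follows in part from the rule, since a part has to fit inside 1 LBC domain without matching both of its ends. An LBC domain divided into whole post-LBC pieces was rare, with the 4 cases given above. The longest part, of 1392 kb, lay on Z from 63040001 to 64432000, and the shortest, of 208 kb, on chromosome 3 from 101584001 to 101792000.

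A minority of domains lay close to the limit between classes. At the limit of 80 kb, 26 kept domains and 13 fusions had their larger offset exactly at it. With 1 more grid step, 96 kb, 22 shifted domains and 13 parts would have been kept and 14 shifted domains would have been fusions.

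The LBC borders inside fusions were then looked up in the lists that the rule did not use. Of 273 such borders on chromosomes of the manual list, 32 had a manual LBC boundary within 80 kb, or 11.7% (8.43% to 16.1%). Of 773 inner LBC borders at the ends of kept domains and fusions, 567 had one, or 73.4% (70.1% to 76.3%). Borders inside fusions were thus mostly absent from the manual list of the LBC map as well. From inspection by eye on a single chromosome, the study reports that many neighbouring LBC domains were fused at the post-LBC stage. Genome-wide, it reports fewer boundaries, longer domains and more frequent contacts between neighbouring LBC domains at that stage. It also reports lower insulation, the separation of contacts across a border, at domain borders. Contact maps were not analysed here, so whether contacts across the borders inside fusions changed between the stages was not tested. In the post-LBC type 2 list, which rests on 1 nucleus, 65 of 274 borders inside fusions were found (23.7%, 19.1% to 29.1%) against 487 of 779 retained ones (62.5%, 59.1% to 65.8%). In the LBC type 2 list, from 6 nuclei, the shares were closer, with 127 of 274 (46.4%, 40.5% to 52.3%) and 428 of 779 (54.9%, 51.4% to 58.4%). Their intervals overlapped at this tolerance, and at 160 kb (66.1% and 68.8%), but not at 32 kb, where the shares were 27.4% (22.4% to 32.9%) and 40.6% (37.2% to 44.1%). In the manual LBC and post-LBC type 2 lists the intervals did not overlap at any of the 3 tolerances. The lists are of unequal density, with 873, 1582 and 1342 domains, so that the shares are comparable within a list and not between lists. A wider tolerance also finds more boundaries by coincidence, and the share for random positions was not computed.

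**Figure D5:**
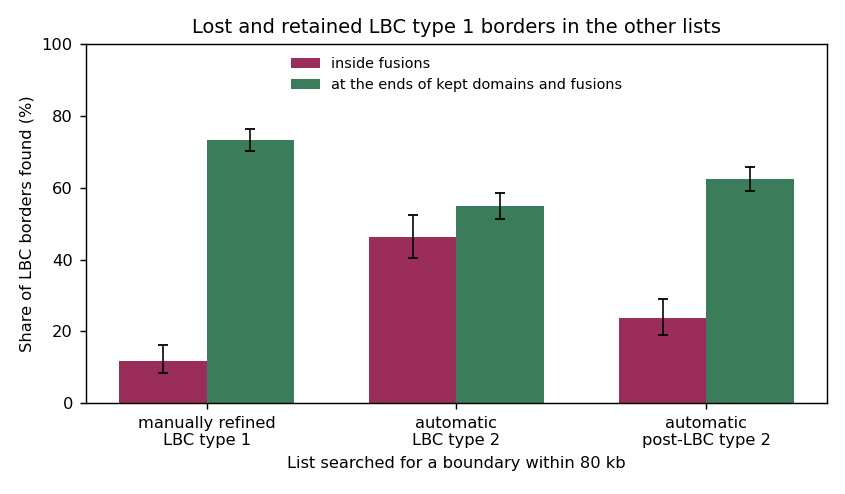
Share of LBC type 1 borders with a boundary within 80 kb in each of 3 other lists, in percent with 95% Wilson intervals, for borders inside fusions and for borders at the ends of kept domains and fusions. The shares are 11.7% and 73.4% in the manual LBC list, 46.4% and 54.9% in LBC type 2 and 23.7% and 62.5% in post-LBC type 2.

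Domain by domain, of the 240 fusions on chromosomes of the manual list, 145 matched a single manual LBC domain at both ends (60.4%), 52 were parts of one (21.7%), 25 were shifted (10.4%) and 18 were fusions of manual domains as well (7.50%). Of the 378 kept domains, 179 were kept against the manual list (47.4%) and 180 were parts (47.6%). Of the 379 shifted domains, 201 were parts of a manual domain (53.0%).

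In 16 of the 18 domains that were fusions by both LBC lists, the inner manual border had an automatic LBC boundary within 80 kb. Of the 18, 13 lay on microchromosomes (of 63 fusions there), 4 on intermediate chromosomes (of 55) and 1 on a macrochromosome (of 117). The longest, on chromosome 10 from 5216001 to 6944000, had 1728 kb and joined 3 automatic or 2 manual LBC domains. In 5 of the 18 the inner manual border had a boundary in LBC type 2 within 80 kb, in 7 it had one in post-LBC type 2. In 4 of them it was present in LBC type 2 and absent in post-LBC type 2, so that the border was in each LBC list and in neither post-LBC list. These 4 lay on chromosome 3 from 50784001 to 52224000, on chromosome 8 from 28304001 to 29296000, on chromosome 10 from 13408001 to 14592000 and on chromosome 26 from 720001 to 1472000. These 4 were chosen after their values were seen. Absence from the post-LBC type 1 list follows from the definition of a fusion. Of all automatic LBC borders inside fusions, 46.4% were found in LBC type 2 and 23.7% in post-LBC type 2. Of the retained ones, 54.9% and 62.5% were found, so that many borders were missing from the type 2 lists in either case. Whether the 4 borders were lost between the stages was not tested.

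The same classes were computed for other pairs of lists. Between the stages of type 2, with 1 post-LBC nucleus, 4.92% of the 1342 post-LBC domains were fusions (3.88% to 6.21%), 11.9% were kept, 26.6% were parts and 56.6% were shifted. Between both types at the LBC stage, 3.03% of the LBC type 2 domains were fusions of LBC type 1 domains, 22.3% were kept and 44.2% were shifted. Between both types at the post-LBC stage, 2.01% were fusions and 47.8% were parts. Classed against LBC type 2 in place of LBC type 1, 8.66% of the post-LBC type 1 domains were fusions, 16.4% were kept and 62.6% were shifted. The shares of kept domains and fusions between the type 1 stages, 33.7% and 21.3%, were above those in each of these 4 pairs. Their intervals, which cover counting error only, did not overlap. In the pairs between the types at the same stage, the classed list held more domains than its reference. These were 1582 against 1546 at the LBC stage and 1342 against 1132 at the post-LBC stage. Few domains of the classed list could thus join 2 whole reference domains, and the ranking by fusions is partly set by list size. In the pair of post-LBC type 1 against LBC type 2 the classed list held fewer domains than its reference, 1132 against 1582. Several of these pairs share a list with the comparison of the type 1 stages, and a shorter LBC median length in type 1 (592 kb) and a longer post-LBC one (864 kb) stand beside 608 and 688 kb in type 2.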

How the data were processed

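Hi-C contacts were read in 25 single oocyte nuclei, and the authors pooled them by stage and type. After adapter removal (cutadapt 4.1), alignment to ASM2420605v2 (juicer 1.5.6), removal of pairs whose mapping quality was under 30 and storage (cooler 0.10.2), they called domains with lavaburst 0.2.0. The methods choose its size parameter for each single oocyte, by a target for the average domain size. The lists used here are named for the pooled maps. The deposited lists hold domain coordinates in bp, with no score, count or strength. Every automatic domain was longer than 200 kb and lay on a 16 kb grid, whereas the methods give a resolution of 20 kb. A list refined by hand exists for LBC type 1 and does not hold chromosome 25. Nuclei were grouped by the stage and type in the labels.

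Each post-LBC domain was classed with Python 3.11.15 and numpy 2.4.6 as kept, fusion, part or shifted, with the tolerance of 80 kb. Plots used matplotlib 3.10.9. Shares carry 95% Wilson intervals, and no test was made. The classes were recovered on simulated lists, made from the LBC list by the operations that define the classes. Ends of kept and fused domains were moved there only within the tolerance. This checks the code and not the effect of boundary noise. Domains were named if they were the fusion of the most LBC domains, the longest or shortest of a class, the longest kept, identical or fused ones of a chromosome class, or the longest runs. Chromosomes with 10 or more post-LBC domains were ranked by their share of fusions. The classes, lists and naming rule were chosen with earlier results of these data known. Alternatives were other tolerances, other LBC lists, other definitions of a fusion, and leaving out chromosomes or outermost domains. Contact maps, gene content and sequence were not analysed here.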

Additional observations from a re-analysis of the deposited data

How the results depend on the processing

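The shares of post-LBC domains changed most with the LBC list. Against the manually refined LBC type 1 list, fusions were 3.02%, parts 47.9% and shifted domains 13.1%, and 8.27% of the manual LBC domains were in a fusion. Against the automatic LBC type 2 list, kept domains were 16.4%, fusions 8.66% and shifted domains 62.6%, and 13.1% of the LBC type 2 domains were in a fusion. With a tolerance of 32 kb, kept, fusion, part and shifted were 25.6%, 17.7%, 14.9% and 41.8%, with 27.9% of LBC domains in a fusion. With 160 kb they were 43.6%, 27.0%, 8.83% and 20.5%, with 42.3%. Counting any post-LBC domain with 2 or more whole LBC domains as a fusion gave 25.0% fusions, 29.8% shifted domains and 39.1% of LBC domains in a fusion. The cause of these changes was not tested beyond what each setting itself changes. Leaving out the outermost domains, counting no fusion over an LBC gap, placing chromosome 11 with the intermediate chromosomes, and other tolerances for the borders in the manual list kept each share inside the interval of its main value. So did limiting those borders to abutting domains, an alternative chosen after seeing the data. With each of the 28 chromosomes left out in turn, kept domains ranged from 33.0% to 34.9%, fusions from 20.6% to 23.6%, parts from 9.92% to 11.9%, shifted domains from 31.6% to 34.1% and LBC domains in a fusion from 32.4% to 36.1%, the last of these without chromosome 1. No paired analysis was possible because each group is 1 pooled list, and for the same reason single nuclei could not be left out. Depth is unknown from the lists, and 14 nuclei stand against 4. In the pooled maps that the study displays for both stages, the post-LBC map has fewer contacts.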
